A study of Homo sapiens with 6 samples.

Results

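The genes described here are 35 genes of AKT, mTOR, AMPK and FOXO signalling, chosen by symbol as the rows of the deposited expression table that carry their names. All 35 were found among the 27914 genes of the table. They were measured by RNA sequencing in MCF10A cells, an immortalised human breast epithelial line that does not form tumours. The control group was 3 libraries labelled SCRin control with a wild-type genotype. The other group was 3 libraries with the genotype α-/-;βin, called α-/-;βin cells here. Both groups had been given doxycycline, an antibiotic commonly used to switch on inducible constructs, for 3 days. What SCR and in stand for is not spelled out in the labels. The series title concerns PI5P4K enzymes and the Hippo pathway, and it is the ground for reading α and β as the enzymes encoded by PIP4K2A and PIP4K2B. The labels give no clone, inducible construct or culture of origin, so a p-value here reflects only how these libraries spread, and that spread may be technical.

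As background, insulin and growth factors activate PI3K, whose lipid product brings the kinase AKT to the membrane, where PDK1 and mTOR complex 2 phosphorylate it. AKT inhibits the TSC complex and the FOXO transcription factors. When the TSC complex is off, the small GTPase RHEB activates mTOR complex 1, which promotes protein synthesis through the S6 kinases and the 4E-BP repressors. AMPK, a kinase that senses low cellular energy and is activated by LKB1, restrains mTOR complex 1. Much of this network is controlled by phosphorylation, which RNA levels do not report. The comparison asks how the RNA of these genes differed between α-/-;βin and control cells.

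Values are in TPM (transcript abundance, a level scaled for gene length and to the same total in each library), so levels of different genes can be set side by side. The 6 libraries held 14738 to 15058 genes above 0, with Spearman correlations across genes of 0.944 to 0.970 between libraries. The number of reads behind a value is unknown, since TPM does not retain depth. The targeted genes went with the labels: PIP4K2A measured 20.6 ± 1.02 TPM in controls and 4.20 ± 0.132 TPM in α-/-;βin cells, and PIP4K2B measured 21.8 ± 1.21 and 9.49 ± 1.83 TPM (SD, n = 3). Both passed the limma test (adjusted p = 0.000847 and 0.00985), although PIP4K2B did not without control replicate 3 (limma adjusted p = 0.0602). All 8 basal breast epithelial markers reached a mean of 1 TPM, with a sum of 1381 to 2428 TPM in controls and 2064 to 2616 TPM in α-/-;βin cells. Of 8 luminal markers, 4 reached that mean. The luminal sum was 632 to 728 TPM in controls and 567 to 680 TPM in α-/-;βin cells, mostly from KRT18 and KRT8 (means of 443 and 205 TPM). Of the 8 basal markers, EGFR passed as lower at 46.5% of control (limma adjusted p = 0.00308). EGFR is among the tested neighbours of GRB10 in the chromosome 7 stretch described further on, whose part in its value was not tested. The other 7 basal markers had changes above 0 that did not pass. Of the 8 basal markers, 6 (75%) had an unadjusted limma p under 0.05, against 11.9% of all genes. The part of these basal markers in the values of the signalling genes was not tested. Of the markers of other cells, none of 4 endothelial and none of 4 adipocyte markers reached a mean of 1 TPM. The fibroblast markers summed to 1.96 to 6.32 TPM in controls and 2.73 to 6.13 TPM in α-/-;βin cells, with COL3A1 at 0 in every library. The leukocyte markers summed to 42.9 to 47.5 and 43.5 to 46.0 TPM, with PTPRC at 0.

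Every signalling gene had a value above 0 in every library, and 3 of them had a mean above 100 TPM: EIF4EBP1, RHEB and AKT1. Another 3 lay between 50 and 100 TPM, 21 between 10 and 50 TPM, 7 between 1 and 10 TPM, and DEPTOR below 1 TPM. The plot of levels by library shows that the spread between genes was far wider than the spread between groups for most genes.

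**Figure D1:**
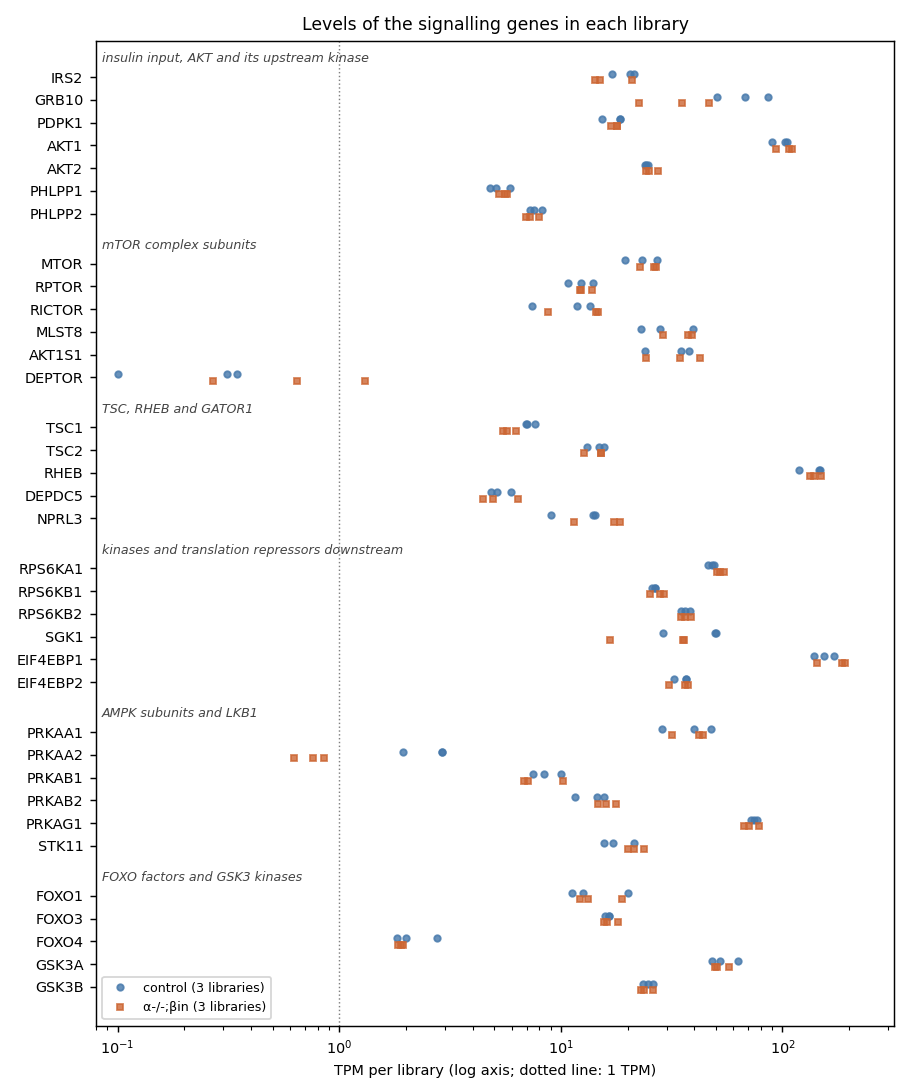
TPM of each of the 35 signalling genes on a log axis, in 3 control libraries (circles) and 3 α-/-;βin libraries (squares), ordered by role, with a dotted line at 1 TPM. Levels run from under 1 TPM for DEPTOR to over 100 TPM for EIF4EBP1, RHEB and AKT1, and PRKAA2 is the gene with the widest gap between the groups.

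None of the 34 genes whose mean reached 1 TPM passed the limma test at an adjusted p of 0.05, where 2.19% of all 12096 tested genes did. That whole-table figure was 265 genes, and it dropped to 106 when control replicate 3 was left out, to 119 when α-/-;βin replicate 3 was, and to 163 when α-/-;βin replicate 1 was. Of the 221 genes called lower, 128 lie in a stretch of chromosome 7 and 36 in a stretch of chromosome 3. Both stretches, whose ends were taken from an earlier look at these data, are described with GRB10 and NPRL2 further on. Leaving both chromosomes out of the test left 48 genes called and none of the signalling genes still in it. GRB10, RHEB and GSK3B lie on these chromosomes, so that test could not call them. At an unadjusted p under 0.05 there were 2 of the 34 (5.88%), PRKAA2 and GRB10, against 11.9% of all genes. In 4 genes (11.8%) the groups did not overlap, against 17.1% of all genes: GRB10, TSC1 and PRKAA2 were lower in every α-/-;βin library and RPS6KA1 was higher. The median log2 change of the 34 genes, α-/-;βin minus control on the log2(TPM + 1) scale, was 0.03, with 20 above 0 and 14 below, and that of all genes was -0.01. The median size of the change was 0.06 for the signalling genes and 0.13 for all genes. A test that was missed does not show equal levels: the 95% interval of the change lay within 1 log2 unit of 0 for 31 of the 34 genes and within 0.5 for 19. As in any bulk sample, fewer cells of a type and less RNA per cell cannot be told apart.

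**Figure D2:**
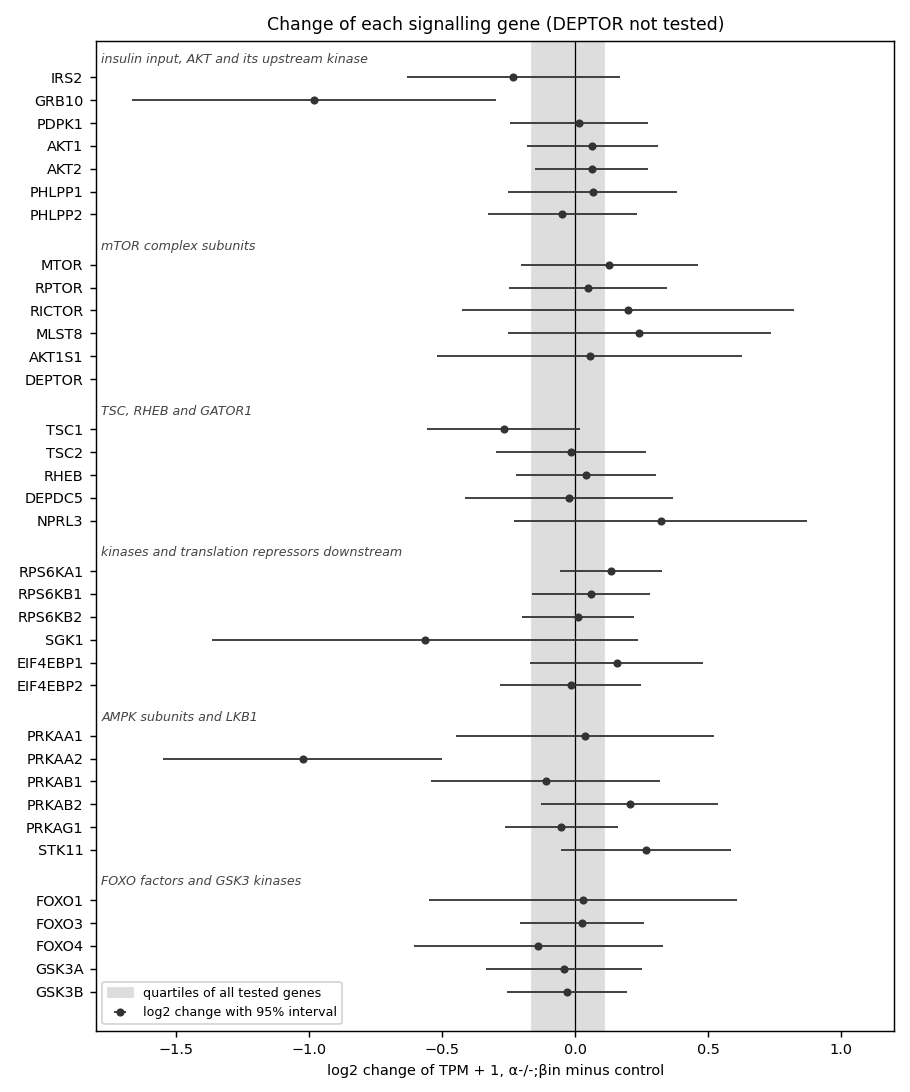
log2 change of TPM + 1, α-/-;βin minus control, for each tested signalling gene (point) with its 95% interval (line), and the quartiles of all tested genes as a grey band. PRKAA2 (-1.02) and GRB10 (-0.98) are the genes whose intervals lie wholly below 0.

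Among genes of insulin input and AKT, GRB10 was the one that stood apart, and the levels of AKT itself differed little. GRB10 encodes an adaptor that binds the insulin receptor and dampens its signal, and is itself a substrate of mTOR complex 1. Its level was 85.9, 50.5 and 68.1 TPM in the controls and 46.6, 22.4 and 35.2 TPM in the α-/-;βin cells, each in the order of replicates 1 to 3, as in all such runs of values. The lowest control was above the highest α-/-;βin library by a narrow margin, and the library numbered 2 was the lowest of its group in both. The α-/-;βin mean was 50.9% of the control mean, with a log2 change of -0.98 (SE 0.29, 95% interval -1.66 to -0.30) that did not pass (limma adjusted p = 0.221). AKT1, a kinase at the centre of the pathway, was found at 89.5, 103 and 105 TPM in controls and at 93.9, 107 and 110.3 TPM in α-/-;βin cells. α-/-;βin replicates 2 and 3 lay above every control and replicate 1 lay among the controls, and the log2 change of AKT1 was 0.07 (95% interval -0.18 to 0.31). AKT2, the AKT kinase best known for glucose uptake, lay between 24.0 and 24.8 TPM in controls and between 24.2 and 27.3 TPM in α-/-;βin cells (log2 change 0.06, 95% interval -0.15 to 0.28). PDPK1, which encodes the activating kinase PDK1, lay between 15.3 and 18.5 TPM in controls and between 16.8 and 18 TPM in α-/-;βin cells (log2 change 0.02), and it has near-identical pseudogene copies, so its value is uncertain. For each of these kinases the groups overlapped. IRS2, which encodes a docking protein that links the insulin receptor to PI3K, measured 17.0, 21.4 and 20.5 TPM in controls and 14.2, 21.0 and 15.0 TPM in α-/-;βin cells. Its change of -0.23 (SE 0.17) did not pass (limma adjusted p = 0.689), and α-/-;βin replicate 2 lay within the control range. The phosphatases that remove AKT's activating phosphate, PHLPP1 and PHLPP2, averaged 5.39 and 7.55 TPM over the 6 libraries, with log2 changes of 0.07 and -0.05.

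The 5 tested subunits of the mTOR complexes had log2 changes from 0.05 to 0.24 with a median of 0.13, and none passed the test. Those of RPTOR and AKT1S1 turned below 0 without control replicate 1 or without α-/-;βin replicate 2, and that of RICTOR without control replicate 3. MTOR, the kinase at the core of both complexes, measured 19.4, 27.0 and 23.1 TPM in controls and 22.6, 26.2 and 27.0 TPM in α-/-;βin cells (log2 change 0.13, SE 0.14). MLST8, a subunit of both complexes, had the largest change of the group at 0.24 (SE 0.21, limma adjusted p = 0.741). It measured 22.9, 39.3 and 28.0 TPM in controls and 28.9, 39.0 and 37.6 TPM in α-/-;βin cells, so control replicates 1 and 3 lay below every α-/-;βin library and control replicate 2 lay above them all. RPTOR, which recruits the substrates of complex 1, lay between 10.8 and 14 TPM in controls and between 12.1 and 13.8 TPM in α-/-;βin cells (log2 change 0.05). RICTOR, the defining subunit of complex 2, measured 13.5, 11.8 and 7.38 TPM in controls and 14.3, 14.7 and 8.78 TPM in α-/-;βin cells. The library numbered 3 was the lowest of its group in both, and the change of 0.20 (95% interval -0.43 to 0.82) did not pass (limma adjusted p = 0.856). AKT1S1, which encodes the complex 1 inhibitor PRAS40, had a change of 0.06 with an interval of -0.52 to 0.63. DEPTOR, an inhibitor that binds mTOR, was the one gene below the filter. It measured 0.347, 0.10 and 0.311 TPM in controls and 1.30, 0.643 and 0.268 TPM in α-/-;βin cells. α-/-;βin replicate 3 was below 2 of the 3 controls, and with no filter on low values the change was 0.43 (95% interval -0.12 to 0.99, limma adjusted p = 0.609).

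Of the genes that set the activity of RHEB and of the Rag branch, TSC1 was lower in every α-/-;βin library and its partner TSC2 was not. TSC1 encodes hamartin, which stabilises tuberin, the TSC2 product that switches RHEB off. TSC1 measured 6.95, 7.05 and 7.68 TPM in controls and 5.72, 6.30 and 5.49 TPM in α-/-;βin cells, with no overlap and a mean of 80.8% of control. The log2 change of -0.27 (SE 0.12, 95% interval -0.56 to 0.02) did not pass (limma adjusted p = 0.461). TSC2 measured 13.1, 15.7 and 14.9 TPM in controls and 12.8, 15.3 and 15.2 TPM in α-/-;βin cells, which is a change of -0.02. RHEB was the second most abundant of the signalling genes, at 119, 148 and 146 TPM in controls and 133, 149.9 and 139 TPM in α-/-;βin cells. Its groups overlapped, with a change of 0.04 (95% interval -0.22 to 0.30). DEPDC5 and NPRL3 encode subunits of GATOR1, which turns mTOR complex 1 off when amino acids are scarce. NPRL3 measured 8.99, 14.2 and 14 TPM in controls and 11.4, 18.4 and 17.4 TPM in α-/-;βin cells. It had the highest change of the 34 genes, 0.32 (SE 0.23, 95% interval -0.23 to 0.87, limma adjusted p = 0.687), but α-/-;βin replicate 1 lay below 2 controls. DEPDC5 averaged 5.34 and 5.27 TPM in the 2 groups. In the GENCODE v29 annotation, which is not known to be the authors' one, exons of NPRL3 overlap those of MPG on the opposite strand (54.1 TPM), and exons of TSC2 overlap NTHL1 (17.1 TPM) and PKD1 (4.56 TPM). The sources used here do not say whether counting used strand, so the values of NPRL3 and TSC2 are uncertain. In all, 18 of the 35 genes have such an overlap with another annotated gene, 7 of them with one listed in the table, but GRB10, TSC1, RPS6KA1, PRKAA2 and SGK1 have none.

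Downstream of AKT and mTOR, RPS6KA1 was higher in every α-/-;βin library and SGK1 had lower values with overlap. RPS6KA1 encodes RSK1, a kinase driven by ERK signalling that shares substrates with the S6 kinases. It measured 46.0, 47.9 and 49.0 TPM in controls and 52.1, 50.4 and 54.6 TPM in α-/-;βin cells. The groups lay close together but apart, with a change of 0.13 (SE 0.08, 95% interval -0.06 to 0.33) that did not pass (limma adjusted p = 0.613). SGK1, an AKT-related kinase activated by mTOR complex 2, measured 50.2, 29 and 49.6 TPM in controls and 36.1, 16.7 and 35.6 TPM in α-/-;βin cells. Each group held 2 close values and a lower one in the library numbered 2, so control replicate 2 lay below 2 of the α-/-;βin libraries. The change of SGK1 was -0.56 (SE 0.34, 95% interval -1.37 to 0.24, limma adjusted p = 0.612). EIF4EBP1, which encodes the translation repressor 4E-BP1, was the most abundant of the 35 genes. It measured 172, 154 and 139 TPM in controls and 186, 191 and 143 TPM in α-/-;βin cells, a change of 0.16 (SE 0.14) with overlap. EIF4EBP2, the other such repressor among the 35 genes, and the S6 kinases RPS6KB1 and RPS6KB2, which phosphorylate ribosomal protein S6, had changes of -0.02, 0.06 and 0.01. Their mean levels over the 6 libraries were 35, 26.9 and 36.5 TPM.

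**Figure D3:**
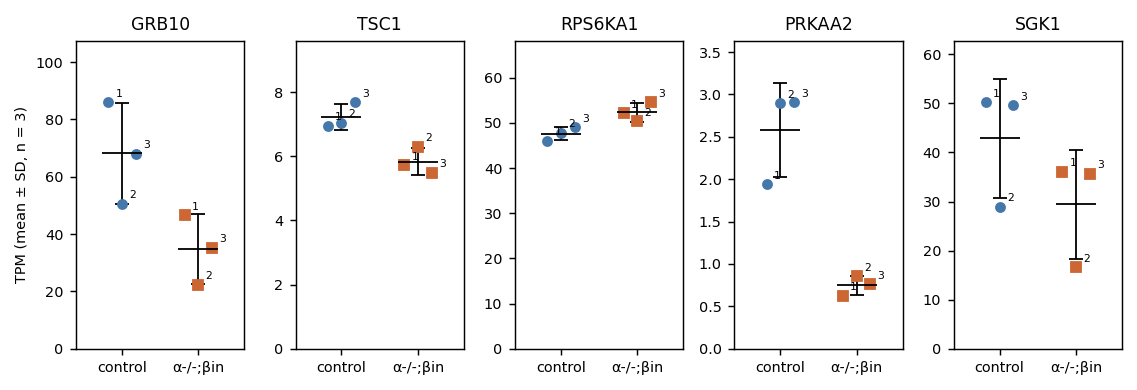
TPM of GRB10, TSC1, RPS6KA1, PRKAA2 and SGK1 in each library, numbered by replicate, with the mean and SD of each group (n = 3) as bars. The groups do not overlap in GRB10, TSC1, RPS6KA1 and PRKAA2; in SGK1 control replicate 2 (29 TPM) lies below α-/-;βin replicates 1 and 3 (36.1 and 35.6 TPM).

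AMPK is a trimer of a catalytic α, a scaffolding β and a regulatory γ subunit, and its minor catalytic gene PRKAA2 showed the widest separation between the groups. PRKAA2 encodes the α2 subunit, and it measured 1.94, 2.90 and 2.91 TPM in controls and 0.627, 0.853 and 0.765 TPM in α-/-;βin cells. All α-/-;βin libraries were below 1 TPM and all controls were above, and the mean was 29% of control. The log2 change of -1.02 (SE 0.22, 95% interval -1.55 to -0.50) was the lowest of the 34 genes and did not pass (limma adjusted p = 0.0808, from 0.0219 to 0.288 over 16 alternatives). It passed in 2 of the 16, with its lowest adjusted p in the limma fit without a mean-variance trend. At this low level the size depends on the added constant: the change was -1.65 with a pseudocount of 0.1 and -0.40 with a pseudocount of 5. PRKAA1, which encodes the α1 subunit and is the main catalytic gene in these cells, measured 28.7, 47.4 and 39.7 TPM in controls and 31.8, 42.1 and 43.7 TPM in α-/-;βin cells. Its groups overlapped fully, with a change of 0.04 (95% interval -0.45 to 0.52).

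The 250 bases before the RefSeq start site of PRKAA2 are printed as the upstream sequence of the gene with the widest separation, read from RefSeq on GRCh38.p14, 5′ to 3′ on the gene's own strand with CpG dinucleotides in capitals. The window is chr1:56645064-56645313 on the plus strand.
PRKAA2: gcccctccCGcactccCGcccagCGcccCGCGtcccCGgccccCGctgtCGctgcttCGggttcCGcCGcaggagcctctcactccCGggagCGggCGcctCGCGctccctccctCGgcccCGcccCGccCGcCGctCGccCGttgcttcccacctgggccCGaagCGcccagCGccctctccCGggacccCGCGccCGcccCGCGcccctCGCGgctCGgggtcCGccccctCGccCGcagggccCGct
It holds 39 CpG and has a G plus C content of 83.2%. RefSeq windows of this length were found for 31 of the 35 genes, 46 in all, with a median of 27 CpG against 11 over 35116 promoters. Where a gene has several start sites, such a window can reach into an exon of a transcript that starts further upstream. Both strands were searched for the FOXO motif TGTTTAC and the motif GGAATG of TEAD, the partner of the Hippo-regulated YAP. TGTTTAC was in 0 of the 46 windows and in 2.98% of all, GGAATG was in 4 of the 46 (8.70%) and in 11.9% of all, and neither was in the PRKAA2 window. The 2 motifs do not contain each other, and a missing match says only that these letters are not in this window.

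The other AMPK genes overlapped between groups. PRKAB1 and PRKAB2, the β subunits, averaged 8.66 and 13.9 TPM in controls and 8.02 and 16.2 TPM in α-/-;βin cells, with changes of -0.11 and 0.20. PRKAG1, the γ1 subunit, was the most abundant AMPK gene among the 35, between 72.0 and 76.8 TPM in controls and between 66.8 and 78.0 TPM in α-/-;βin cells. STK11, which encodes the activating kinase LKB1, measured 15.7, 21.3 and 17.2 TPM in controls and 20.2, 23.7 and 21.4 TPM in α-/-;βin cells. Only control replicate 2 lay inside the α-/-;βin range, and the change of 0.27 (SE 0.14, 95% interval -0.05 to 0.58) did not pass (limma adjusted p = 0.525).

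The FOXO factors, which AKT keeps out of the nucleus, and the GSK3 kinases, which AKT inhibits, had the smallest median size of change of the 6 roles, 0.03, and none passed. FOXO3 and FOXO1 were the main FOXO genes, at 16.3 ± 0.349 and 14.7 ± 4.77 TPM in controls and 16.6 ± 1.29 and 14.8 ± 3.6 TPM in α-/-;βin cells (SD, n = 3). FOXO1 was highest in the library numbered 2 of each group (20.1 and 18.9 TPM), whereas FOXO3 was even across libraries. The changes were 0.02 for FOXO3 (95% interval -0.21 to 0.26) and 0.03 for FOXO1 (95% interval -0.55 to 0.61). A near-identical copy, FOXO3B, was listed at 1.11 to 1.77 TPM, so the split of reads between it and FOXO3 is uncertain. FOXO4 lay between 1.83 and 2.77 TPM in controls and between 1.83 and 1.93 TPM in α-/-;βin cells (change -0.14). GSK3A and GSK3B averaged 53.6 and 24.5 TPM over the 6 libraries, with changes of -0.04 and -0.03.

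Because TPM is a level per length, the share of a gene within its family can be read in each library, and this was done for 10 families. Each family was made up only of genes among the 35, so a relative outside them is not counted. In 8 families the shares overlapped between groups. AKT1 made up 80.2% ± 1.28 of AKT1 plus AKT2 in controls and 80.3% ± 0.827 in α-/-;βin cells (SD, n = 3). The share of PRKAA1 in the catalytic AMPK pair was 93.7%, 94.2% and 93.2% in controls and 98.1%, 98.0% and 98.3% in α-/-;βin cells. The groups were apart by more than the spread within either, and PRKAA2 made up 6.31% of the pair in controls and 1.88% in α-/-;βin cells. The share of TSC1 in TSC1 plus TSC2 was 34.6%, 31.0% and 34.0% in controls and 30.9%, 29.2% and 26.5% in α-/-;βin cells, apart by a narrow margin. For both, the exact two-sided permutation test gave p = 0.1, the smallest that 3 libraries against 3 allow (0.5 after Benjamini-Hochberg adjustment over the 10 shares). PRKAA2 and TSC1 had already been seen to separate as single genes, so these shares are no separate support.

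**Figure D4:**
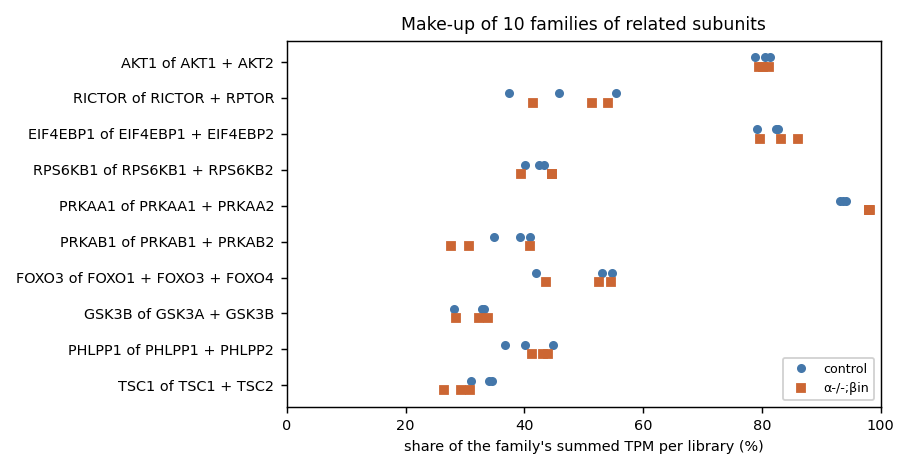
Share of 1 gene in the summed TPM of its family (%) in 3 control libraries (circles) and 3 α-/-;βin libraries (squares), for 10 families. The groups are apart for PRKAA1 of PRKAA1 plus PRKAA2 and for TSC1 of TSC1 plus TSC2, and overlap in the other 8.

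On the log2(TPM + 1) scale GRB10 and PRKAA2 had changes of like size (-0.98 and -1.02), although their means were 50.9% and 29% of control. The genes beside GRB10 and those beside PRKAA2 differed in their changes. The 10 tested genes on each side of GRB10 on chromosome 7, in RefSeq order, had a median log2 change of -0.95, and 18 of the 20 were below 0. The 20 neighbours of PRKAA2 on chromosome 1 had a median of -0.05, with 11 below 0. GRB10 lies in a stretch of chromosome 7 from FAM20C to CHCHD2, whose ends were taken from an earlier look at these data. The 196 tested genes of that stretch had a median of -0.91 and GRB10 ranked 76 from the lowest, while the other 368 tested genes of chromosome 7, RHEB among them, had a median of -0.01. The part of the neighbouring genes in the GRB10 value was not tested. The neighbours of TSC1 on chromosome 9 had a median of 0.01, and those of RPS6KA1 on chromosome 1 had a median of -0.14.

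**Figure D5:**
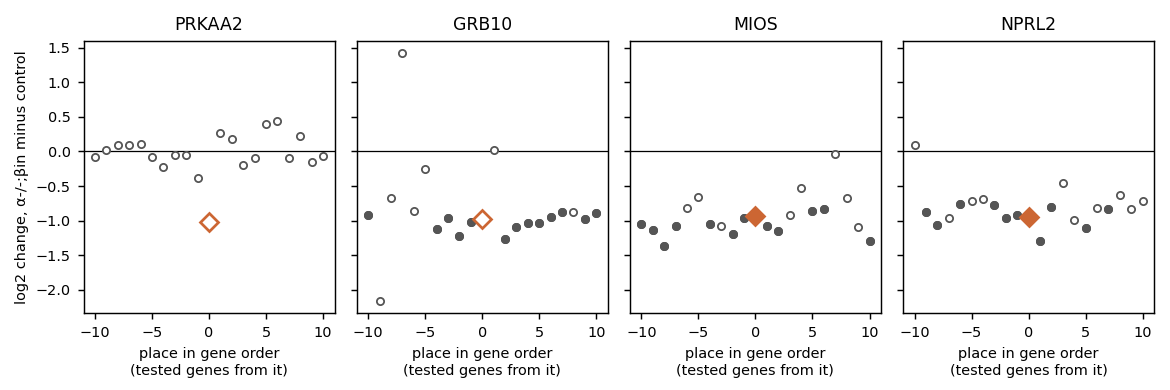
log2 change of TPM + 1, α-/-;βin minus control, for PRKAA2, GRB10, MIOS and NPRL2 (diamonds at 0) and the 10 tested genes on each side in gene order (circles), filled where the limma adjusted p was under 0.05. The neighbours of GRB10, MIOS and NPRL2 have medians of -0.95, -1.04 and -0.82, and those of PRKAA2 -0.05.

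A wider list of 149 other genes of these pathways was read out in the same fit, and 2 of its 133 tested genes passed, both lower (1.5%, where 1.83% of all genes were lower). Both belong to the amino acid branch of mTOR complex 1 control, where 2 of 27 tested genes passed as lower and 25 did not pass (median -0.13). MIOS encodes a subunit of GATOR2, which holds GATOR1 in check. It measured 74.4, 74.2 and 80.7 TPM in controls and 37.5, 38.6 and 42.5 TPM in α-/-;βin cells, so every α-/-;βin library was below every control and the mean fell to 51.7% of control. The log2 change was -0.93 (SE 0.09, limma adjusted p = 0.00489, from 0.00146 to 0.0360 over 16 alternatives). NPRL2 encodes the third subunit of GATOR1, beside NPRL3 and DEPDC5. It measured 10.1, 13.4 and 10.2 TPM in controls and 4.55, 5.78 and 5.66 TPM in α-/-;βin cells, a change of -0.94 (SE 0.16, limma adjusted p = 0.0303). NPRL2 passed in 9 of 16 alternatives and did not in 7. Those 7 include every fit with a single library left out (limma adjusted p from 0.0591 without control replicate 1 to 0.105 without α-/-;βin replicate 3). The exons of NPRL2 overlap CYB561D2 (16.6 TPM) on the opposite strand. Like GRB10, MIOS lies in the chromosome 7 stretch, and its 20 neighbours had a median of -1.04 with 20 below 0. NPRL2 lies in a stretch of chromosome 3 from SEMA3F to RPP14, whose ends were likewise taken from an earlier look at these data. That stretch had a median of -0.81 over 68 tested genes, and 19 of the 20 neighbours of NPRL2 were below 0. GSK3B is on the rest of chromosome 3, where 616 genes had a median of -0.03. The part of the neighbouring genes in the MIOS and NPRL2 values was not tested.

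No gene of the other 9 lists passed the limma test, and 16 of the 133 tested genes of all 10 lists had an unadjusted p under 0.05 (12%, beside 11.9% of all genes). MAPKAP1, which encodes the mTOR complex 2 subunit SIN1, measured 90.6, 92.0 and 95.3 TPM in controls and 84.4, 78.0 and 80.6 TPM in α-/-;βin cells. Its groups were apart, with a change of -0.19 (SE 0.08, limma adjusted p = 0.396). DDIT4, a stress-induced inhibitor of mTOR complex 1 also known as REDD1, measured 160, 247 and 130 TPM in controls and 187, 361 and 231 TPM in α-/-;βin cells, with overlap and a change of 0.53 (SE 0.30, limma adjusted p = 0.581). The 5 tested genes of that list of stress-induced inhibitors had a median change of 0.41. RPS6, the S6 kinase substrate that names them, had a change of 0.09, CAB39, the scaffold of LKB1, 0.05, MELK, an AMPK-related kinase, -0.04, BAD, a cell death protein phosphorylated by AKT, 0.02, and YWHAZ, a phosphoserine-binding adaptor that holds FOXO factors in the cytoplasm, -0.09.

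Genes usually induced by FOXO factors were read out as a list of 25, 2 of which (IRS2 and RICTOR) are also among the 35 genes. None of the 20 tested passed. They had a median change of 0.04, with 12 above 0 and 8 below, and 1 of the 20 (5.0%) had an unadjusted p under 0.05. That gene, named here after its values were seen, was SESN1, a sestrin that activates AMPK and inhibits mTOR complex 1. It measured 8.46, 11.2 and 7.08 TPM in controls and 12.7, 20.8 and 14.8 TPM in α-/-;βin cells, apart and higher, with a change of 0.78 (SE 0.22, limma adjusted p = 0.188). SOD2, a mitochondrial superoxide dismutase and the most abundant gene of the list, ranged from 93.0 to 349 TPM in controls and from 96.2 to 262 TPM in α-/-;βin cells, so its change of -0.13 had an interval of -1.42 to 1.16.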

How the data were processed

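A TPM table, deposited by the authors, holds 27914 genes in 6 RNA-seq libraries of MCF10A cells, 3 per group. The submitters' processing notes name hg19 as the build, and libraries came from 250 ng of total RNA prepared with TruSeq reagents, per the labels' protocols. For the aligner, quantifier, annotation and strand, the sources used here give nothing. Control columns carry the control name. The remaining columns were assigned to the α-/-;βin group as the only other group, by replicate number. Reads per library are unknown, so low values carry an unknown counting error.

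Values were taken as log2(TPM + 1), which understates changes of low genes, for the 12096 genes whose mean reached 1 TPM. The comparison used limma 3.58.1 in R 4.3.3 (empirical Bayes with a mean-variance trend, two-sided, no covariate), with Benjamini-Hochberg adjustment over all tested genes and a threshold of 0.05. The script was tested on simulated data. All 35 genes are named, and of the other pathway genes those that passed and, in a list where none did, its most abundant gene, except 1 gene that is not reported here. The genes and lists were chosen with earlier results of these data known. Gene order and promoters came from RefSeq GRCh38.p14, which placed 11975 of the tested genes, and exon overlaps from GENCODE v29.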

Additional observations from a re-analysis of the deposited data

How the results depend on the processing

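Of the 34 signalling genes, none that was in the test passed in 15 of 17 alternatives. These include each left-out library, other pseudocounts, filters and scalings. The exceptions were the fit without a mean-variance trend, with 1 gene (PRKAA2, limma adjusted p = 0.0219), and the fit with a replicate block, with 3 (8.82%, where 7.28% of all genes passed): GRB10 (limma adjusted p = 0.00262), SGK1 (0.0194) and PRKAA2 (0.049). Not every gene was in every alternative. The filter at a mean TPM of at least 5 left out PRKAA2 and FOXO4. The test without chromosomes 3 and 7 left out GRB10, RHEB and GSK3B. The replicate block raised the genes called over the whole table from 265 to 881. The labels only number the replicates, so the numbers were not taken as pairs. Deviations of same-numbered libraries correlated at 0.246, 0.269 and -0.0150 for numbers 1 to 3. Numbers 1 and 2 were best matched by their own number and number 3 by another, so these values do not settle whether the libraries are paired. Leaving chromosomes 3 and 7 out of the test left 48 genes called. The stretches of these chromosomes hold 36 and 128 of the 221 genes called lower. That test also changed the adjustment for the genes still in it, and PRKAA2 went from a limma adjusted p of 0.0808 to 0.161. What made up the drop was not tested. Leaving out 1 library left 106 to 219 genes called, with fewer samples in the fit. PIP4K2B ranged from -1.27 to -1.04 with a library left out. The direction turned under some alternative for 15 of the 34 signalling genes, each with a change of 0.20 or less in size, and for none of the other 19; the cause was not tested. With quantile normalization the changes were 0.020 for TSC2, 0.046 for DEPDC5, 0.016 for EIF4EBP2 and 0.0042 for GSK3B, and with median ratio scaling 0.0025 for TSC2 and 0.0028 for EIF4EBP2. With a library left out the changes ranged from -0.068 to 0.059 for PDPK1, from -0.0066 to 0.13 for AKT1, from -0.038 to 0.13 for RPTOR, from -0.035 to 0.42 for RICTOR, from -0.14 to 0.27 for AKT1S1, from -0.084 to 0.063 for TSC2, from -0.062 to 0.099 for RHEB, from -0.15 to 0.070 for DEPDC5, from -0.030 to 0.045 for RPS6KB2, from -0.075 to 0.072 for EIF4EBP2, from -0.16 to 0.20 for PRKAA1, from -0.15 to 0.27 for FOXO1, from -0.034 to 0.064 for FOXO3, from -0.13 to 0.066 for GSK3A and from -0.080 to 0.0075 for GSK3B. Among the other pathway genes, the alternatives were read out only for those named by the rule given above, and the rest were not checked. Of those read out, the same held for MELK (-0.11 to 0.036), SOD2 (-0.54 to 0.43), BAD (-0.056 to 0.11) and YWHAZ (-0.27 to 0.089). The depth behind the TPM values is unknown, which limits PRKAA2, FOXO4 and DEPTOR most, the genes with the lowest levels.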

Other observations

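Among the other pathway genes, INPP5D, which encodes the lipid phosphatase SHIP1 and was chosen after its values were seen, had the largest change that did not pass. It measured 2.52, 5.18 and 3.87 TPM in controls and 8.02, 17.4 and 11.1 TPM in α-/-;βin cells, apart and higher, with a log2 change of 1.42 (SE 0.31, limma adjusted p = 0.0822). PIK3R2, a regulatory PI3K subunit from the same list and also chosen after its values were seen, averaged 28.1 ± 1.74 TPM in controls and 34.3 ± 2.17 TPM in α-/-;βin cells (SD, n = 3; limma adjusted p = 0.297). PRKAG2, the γ2 subunit of AMPK, averaged 114 TPM over the 6 libraries, above PRKAG1 at 73.1 TPM, and had a change of 0.12 (SE 0.19).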
